A study of Mus musculus with 10 samples.

Results

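The mitochondrially encoded transcripts were the 37 rows of the gene table whose symbol begins with mt-, out of 38720 symbols. They comprised 13 mRNAs, 2 rRNAs and 22 tRNAs, and the choice used no measured value. RNA sequencing was done on microdissected mouse tail bud, the growth zone at the posterior end of the embryo, at embryonic day 12.5, in 10 libraries. In the Lin28a-induced group (n = 4, replicates 2 to 5) embryos had TRE-Lin28a, a doxycycline-responsive transgene for the RNA-binding protein Lin28a, with RLSL-rtTA, a Cre-dependent activator, and FoxD1-Cre, and was given doxycycline. The no-Cre group (replicates 6, 7 and 8, n = 3) carried TRE-Lin28a and RLSL-rtTA without Cre, and was given doxycycline too. For the wild-type libraries (n = 3, replicates 1 to 3) no label names a transgene or doxycycline, so genotype, doxycycline and any difference in collection cannot be told apart in a comparison with wild type. Libraries held 21762668 to 39517946 counts. Whether replicates came from separate embryos is not given in the sources used here, so p-values measure the spread between these libraries.

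The mitochondrial genome is a small circle transcribed from both of its strands into long precursors. The tRNAs lie between most of the mRNAs and rRNAs, and cutting at the tRNAs releases the mature RNAs. Its mRNAs encode core subunits of complexes I, III and IV of the respiratory chain and of the ATP synthase (complex V), its rRNAs build the mitochondrial ribosome, and its tRNAs decode the mRNAs. All proteins that replicate, transcribe, process and translate these RNAs are encoded in the nucleus. In the GENCODE M21 annotation of mm10, 28 of the 37 genes were read from the heavy strand and 9 from the light strand, mt-Nd6 and 8 tRNAs.

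Many of the 37 genes could not be measured in this table. Counts of 0 in all 10 libraries were listed for 21 of them, 16 had any count, and 11 passed the expression filter: mt-Rnr1, mt-Rnr2, mt-Nd1, mt-Nd2, mt-Co1, mt-Nd4, mt-Nd5, mt-Nd6, mt-Cytb, mt-Tc and mt-Tp. The 5 mRNAs at 0 were mt-Co2 and mt-Co3 (complex IV subunits), mt-Atp6 and mt-Atp8 (ATP synthase subunits) and mt-Nd4l (a complex I subunit). A count of 0 allows at most 3 counts, or 0.0762 to 0.138 CPM (counts relative to TMM-scaled library size) depending on the library, and covers counting error only. mt-Nd3, another complex I subunit, had 7 counts in all: 1, 3, 0 and 1 in the Lin28a-induced, 0, 1 and 1 in the no-Cre, and 0, 0 and 0 in the wild-type libraries. No comparison was made for these 6 mRNAs.

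The mRNAs with no or almost no counts were, with 1 exception, those with a near-identical copy elsewhere in the annotation. Each gene was cut into overlapping 32-base words, and the share of words found in annotated nuclear transcripts was taken. That share was 100% for mt-Co2 (653 of 653 words), 99.9% for mt-Co3, 99.5% for mt-Atp6, 98.9% for mt-Nd4l and 98.1% for mt-Nd3. It was 62.9% for mt-Co1 and 62.7% for mt-Nd4, 16.2% for mt-Nd5, 12.9% for mt-Nd2, 6.35% for mt-Nd6, 5.75% for mt-Cytb, 2.58% for mt-Rnr2, and 0% for mt-Nd1 and mt-Rnr1. The exception was mt-Atp8, at 0 counts with 6.94% of its words shared. mt-Atp8 lies between mt-Co2 and mt-Atp6 and overlaps mt-Atp6 by 43 bases. Only annotated transcripts were searched, so a copy in unannotated sequence would be missed. How reads with several alignments or overlapping 2 genes were counted is not given in the sources used here, and its part in these zeros was not tested.

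**Figure D1:**
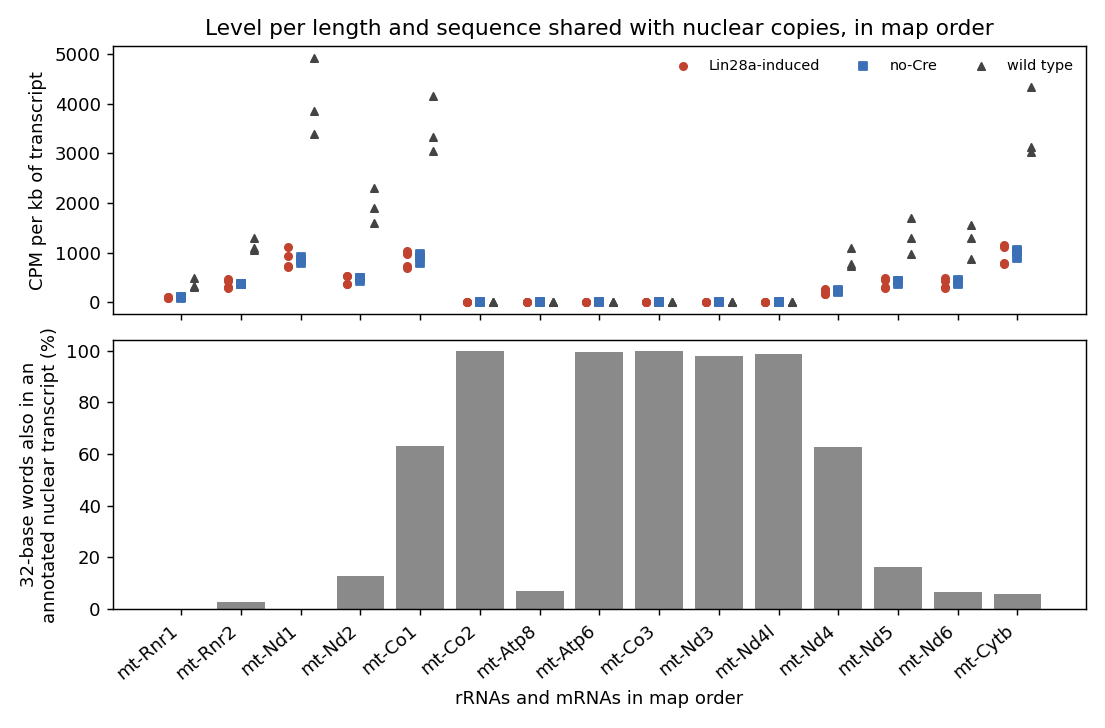
Upper panel, level of each rRNA and mRNA per kilobase of transcript (CPM per kb) with 1 point per library and symbols for the 3 groups; lower panel, share of the gene's 32-base words that also occur in annotated nuclear transcripts (percent, bars). The 5 mRNAs with at least 98% of their words shared, and mt-Atp8 at 6.94%, lie at or near 0 in all libraries.

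The sequences that carry this pattern are printed here 5′ to 3′ from GENCODE M21 transcripts (GRCm38, mm10). The first 75 bases of mt-Co2 (chrM:7013-7087, plus strand) fill 1 read, and the annotated nuclear pseudogene Gm28661 has the same 75 bases from its base 1.
mt-Co2: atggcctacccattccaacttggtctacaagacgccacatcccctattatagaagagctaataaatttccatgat
In mt-Co1 (chrM:5328-6872, plus strand) 586 of 1471 words of 75 bases are shared, in the 3′ part and elsewhere in the gene. In the stretch chrM:6354-6433 the capitals begin at base 6394, base 1067 of the gene, from which every 75-base word to the gene's end, 479 bases in all, also occurs in a nuclear transcript.
mt-Co1: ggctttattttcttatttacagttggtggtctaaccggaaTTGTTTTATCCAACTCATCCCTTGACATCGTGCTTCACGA
mt-Nd3 and its copy Gm28438 aligned over 345 bases with 1 mismatch (99.7% identity). The start of both is shown (mt-Nd3 at chrM:9459-9491, plus strand), with the differing base in capitals.
mt-Nd3: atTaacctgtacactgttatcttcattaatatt
Gm28438: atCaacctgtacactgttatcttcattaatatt

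Nuclear copies with at least 100 shared words numbered 12, and 6 of them were rows of the table. They were low, yet higher in wild type: their summed level was 0.658 to 1.22 CPM in the Lin28a-induced, 0.857 to 1.01 in the no-Cre and 3.58 to 5.43 in the wild-type libraries. The mean over wild-type libraries was 4.75 times that over the other 7. Gm10222, a copy of mt-Nd4l, had 1 count in the 7 transgenic libraries together (Lin28a-induced replicate 4) and 5, 8 and 13 in wild-type replicates 1, 2 and 3. Gm13340, a copy of mt-Co1 with 43.9% of its 32-base words shared, had 9 to 29 counts in the transgenic libraries. In wild type it had 47, 57 and 35. Reads from a mitochondrial gene and from its copy cannot be told apart within identical stretches, which bears most on the counts of mt-Co1 and mt-Nd4.

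The complex I mRNAs mt-Nd1, mt-Nd2, mt-Nd4, mt-Nd5 and mt-Nd6 encode membrane subunits of NADH dehydrogenase, the entry point for electrons from NADH. mt-Nd1 (chrM:2751-3707, plus strand) stood at 1076, 887, 694 and 679 CPM in Lin28a-induced replicates 2 to 5. The no-Cre values, replicates 6 to 8, were 761, 872 and 821 CPM. The wild-type values, replicates 1 to 3, were 3686, 4711 and 3243 CPM. Lin28a-induced and no-Cre libraries overlapped, and all 3 wild-type libraries lay far above both. Its log2 fold change was 0.03 ± 0.18 (SE) for Lin28a-induced against no-Cre (adjusted p = 0.970, edgeR), with a 95% interval of -0.39 to 0.45. Against wild type it was -2.22 ± 0.19 in the Lin28a-induced libraries (adjusted p = 2.57e-05), a 4.65-fold lower level, and -2.25 ± 0.21 in the no-Cre libraries (adjusted p = 6.32e-05). mt-Nd1 shares no word with an annotated nuclear transcript, so no annotated copy with identical words bears on its counts. Unannotated sequence was not searched, so whether reads of mt-Nd1 could also come from a copy there was not tested.

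mt-Nd2 (chrM:3914-4951, plus strand) stood at 550.0, 558, 383 and 392 CPM in the Lin28a-induced, 438, 509 and 510 in the no-Cre, and 1970, 2399 and 1653 in the wild-type libraries. mt-Nd5 (chrM:11742-13565, plus strand) stood at 828, 896, 576 and 542 CPM, at 687, 795 and 779, and at 2363, 3083 and 1766 in the same order. Both showed the order of mt-Nd1: overlapping transgenic groups and a separate wild-type group. The log2 fold change of mt-Nd2 was -2.09 ± 0.18 in Lin28a-induced and -2.05 ± 0.19 in no-Cre libraries against wild type (adjusted p = 2.05e-05 and 6.09e-05). That of mt-Nd5 was smaller in size, -1.76 ± 0.24 and -1.67 ± 0.26 (adjusted p = 0.000538 and 0.00155). Between the transgenic groups the values were -0.04 ± 0.17 for mt-Nd2 and -0.09 ± 0.24 for mt-Nd5 (adjusted p = 0.943 and 0.914).

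mt-Nd4 (chrM:10167-11544, plus strand) stood at 366, 329, 242 and 230 CPM in the Lin28a-induced, 288, 335 and 309 in the no-Cre, and 1006, 1503 and 1067 in the wild-type libraries. Its fall against wild type, -2.03 ± 0.20 and -1.94 ± 0.22 on the log2 scale, was close to that of mt-Nd2. mt-Nd6 (chrM:13552-14070, minus strand), the only mRNA of the light strand, stood at 219, 250.1, 155 and 153 CPM, at 195, 230.2 and 215, and at 676, 806 and 455. Its log2 fold change was -1.73 ± 0.24 and -1.60 ± 0.26 against wild type (adjusted p = 0.000567 and 0.00192, edgeR). Whether counting used the strand is not stated. Of 54 symbols lying inside an exon of an opposite-strand gene with at least 10000 counts, 44 were at 0 counts. That count cannot settle the question, since reads overlapping 2 genes may have been dropped. If the strand was not used, reads of mt-Nd6 and of the antisense transcript of its locus cannot be told apart.

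mt-Cytb (chrM:14145-15288, plus strand) encodes cytochrome b, the mitochondrially encoded subunit of complex III. It stood at 1323, 1276, 898 and 880 CPM in the Lin28a-induced, 1019, 1196 and 1149 in the no-Cre, and 3473, 4961 and 3587 in the wild-type libraries. The lowest wild-type library was above every transgenic library by a wide margin. Its log2 fold change against wild type was -1.87 ± 0.19 (adjusted p = 8.21e-05) and -1.84 ± 0.21 (adjusted p = 0.000230). mt-Co1, the catalytic subunit of cytochrome c oxidase (complex IV), stood at 1586, 1492, 1118 and 1059 CPM, at 1236, 1512 and 1409, and at 5157, 6428 and 4711. Its 3 wild-type libraries also lay above all others, with log2 fold changes of -2.05 ± 0.17 and -1.97 ± 0.19 against wild type (adjusted p = 1.94e-05 and 6.27e-05). Between the transgenic groups mt-Cytb differed by -0.04 ± 0.19 and mt-Co1 by -0.08 ± 0.17 (adjusted p = 0.961 and 0.890).

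The rRNAs form the small and large subunits of the mitochondrial ribosome. mt-Rnr1, the 12S rRNA of the small subunit (chrM:70-1024, plus strand), stood at 105, 95.3, 75.6 and 74.1 CPM in the Lin28a-induced, 97.6, 97.9 and 91.5 in the no-Cre, and 320.3, 461 and 291 in the wild-type libraries. mt-Rnr2, the 16S rRNA of the large subunit (chrM:1094-2675, plus strand), stood at 742, 673, 492 and 467 CPM, at 598, 575 and 599, and at 1663, 2051 and 1721. Neither overlapped between a transgenic group and wild type. The log2 fold change of mt-Rnr1 was -2.03 ± 0.17 and -1.90 ± 0.19 (adjusted p = 1.96e-05 and 7.51e-05), and that of mt-Rnr2 was -1.61 ± 0.16 and -1.62 ± 0.18 (adjusted p = 4.95e-05 and 0.000124). Between the transgenic groups they differed by -0.13 ± 0.17 and 0.01 ± 0.16 (adjusted p = 0.794 and 0.994). mt-Rnr2 had the smallest difference of the 9 mRNAs and rRNAs in the Lin28a-induced libraries.

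Across these 9 genes a split ran within the Lin28a-induced group: replicates 2 and 3 were above replicates 4 and 5 for each gene, and the no-Cre libraries mostly lay between them. The split did not hold for mt-Tc or mt-Tp. The labels give no batch that separates these replicates.

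**Figure D2:**
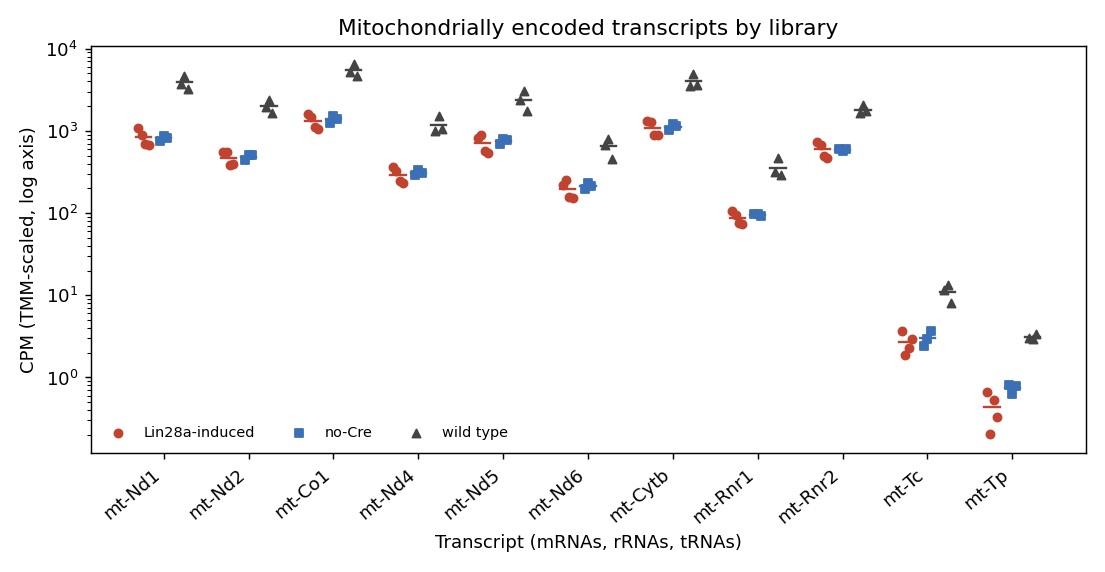
Level of each of the 11 tested members in every library (CPM, log axis), with 1 symbol per library by group and a horizontal line at each group mean, ordered as mRNAs, rRNAs and tRNA genes. Every wild-type symbol lies above every Lin28a-induced and no-Cre symbol of the same gene.

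Of the 22 tRNA genes, 16 were at 0 counts in all libraries. All are shorter than or as long as a 75-base read (59 to 75 bases). The 14 heavy-strand tRNA genes held 3 counts in all, from mt-Tl1, while the 8 light-strand genes held 1850 counts, 1459 of them from mt-Tc (cysteine) and 354 from mt-Tp (proline), with 28 from mt-Te, 8 from mt-Tn and 1 from mt-Tq. A read on a tRNA gene often runs into its neighbours. mt-Tn and mt-Tc border a 32-base stretch without an annotated gene, mt-Tp has no annotated gene after it and mt-Tf none before it. These 4 genes held 1821 counts, though mt-Tf held 0 of them, and the other 18 tRNA genes, within 5 bases of an annotated gene on both sides, held 32. Whether the reads counted on mt-Tc and mt-Tp came from mature tRNAs or from longer RNAs was not tested. The sequences of the pair that could be tested are shown with the anticodon in capitals (mt-Tc at chrM:5192-5257 and mt-Tp at chrM:15356-15422, both minus strand).
mt-Tc: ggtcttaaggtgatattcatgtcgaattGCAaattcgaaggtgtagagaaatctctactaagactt
mt-Tp: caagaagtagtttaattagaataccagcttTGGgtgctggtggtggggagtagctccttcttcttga

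mt-Tc stood at 3.63, 1.89, 2.26 and 2.92 CPM in the Lin28a-induced, 2.40, 2.92 and 3.67 in the no-Cre, and 11.7, 13.3 and 8.08 in the wild-type libraries. Its log2 fold change against wild type was -2.05 ± 0.23 and -1.89 ± 0.25 (adjusted p = 1.08e-05 and 6.43e-05). mt-Tp stood at 0.659, 0.203, 0.533 and 0.330 CPM, at 0.808, 0.625 and 0.789, and at 3.06, 2.92 and 3.35. Both tRNA genes were far higher in wild type. mt-Tp had the greatest difference of the 11 members against wild type in the Lin28a-induced libraries, -2.86 ± 0.32 (adjusted p = 8.69e-06), and -2.06 ± 0.33 in the no-Cre libraries (adjusted p = 0.000260). It was also the member with the greatest difference between the transgenic groups, -0.80 ± 0.34 with a 95% interval of -1.54 to -0.06. That difference had an unadjusted p of 0.0365 and did not pass adjustment over all genes (adjusted p = 0.268, edgeR). Lin28a-induced replicate 2 overlapped the no-Cre range.

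Taking the comparison of Lin28a-induced with no-Cre libraries as a whole, 0 of the 11 tested members passed the threshold of 0.05 in edgeR, and 0 did in DESeq2. The background was 2.91% of 16340 genes. Only mt-Tp had an unadjusted p under 0.05, as did 2658 of all tested genes. The median log2 fold change of the members was -0.09 (9 negative, 2 positive), beside -0.00 for all tested genes, and 0 of 11 members had groups free of overlap, as 23.4% of all tested genes did. The 95% intervals of the 9 mRNAs and rRNAs each held 0. Their outermost limits were -0.69, for mt-Nd6, and 0.46, for mt-Nd5. The smallest difference that could have been detected was not computed.

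Against wild type, 11 of 11 tested members were lower in the Lin28a-induced libraries and 11 of 11 in the no-Cre libraries, with no overlap of groups. Of all tested genes, 49.3% passed in the first of these comparisons and 25.0% passed as lower, while 7.06% passed with at least a 2-fold lower level, which all 11 members did. In the second comparison the shares were 42.5%, 21.4% and 6.73%. Groups that did not overlap, with wild type higher, were found for 24.6% of all tested genes in the first and 26.2% in the second comparison. The median of the members was -2.03 (4.09-fold lower) in Lin28a-induced and -1.90 (3.74-fold lower) in no-Cre libraries, beside -0.02 over all genes in each. The median absolute log2 fold change over all genes was 0.31 and 0.28. Both comparisons use the same wild-type libraries, so they are not independent. Wild-type replicate 2 had the highest level of 10 of the 11 members, all but mt-Tp. Without it, 11 of 11 members passed in each comparison, at log2 fold changes of -2.91 to -1.51 (median -1.83) and -2.11 to -1.41 (median -1.74). In bulk tissue, fewer cells rich in these transcripts and less of them per cell cannot be told apart.

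**Figure D3:**
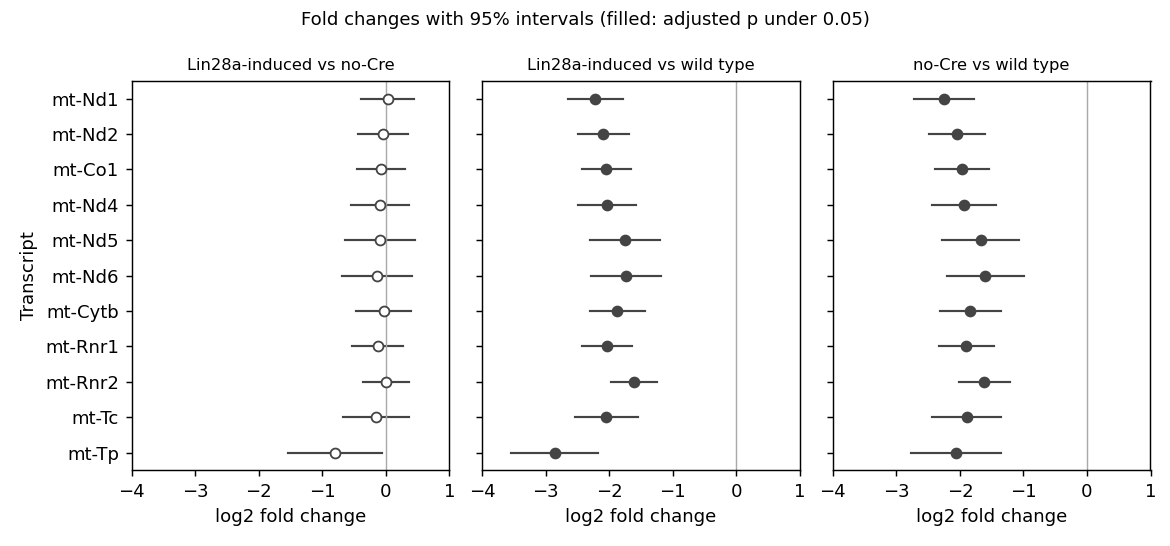
Log2 fold change of the 11 tested members in each of the 3 comparisons, with 95% intervals from edgeR. Values for Lin28a-induced against no-Cre run from -0.80 to 0.03, and those against wild type from -2.86 to -1.60.

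Summed by class, mRNAs took 0.493% ± 0.110 (SD, n = 4) of all counts in the Lin28a-induced, 0.505% ± 0.0440 (n = 3) in the no-Cre and 1.97% ± 0.410 (n = 3) in the wild-type libraries. rRNAs took 0.0684% ± 0.0157, 0.0681% ± 0.000960 and 0.218% ± 0.0326. The tRNA genes took 0.000318% ± 0.000100, 0.000378% ± 0.0000628 and 0.00146% ± 0.000263. No class overlapped between wild type and either transgenic group. In 2-sided exact permutation tests each class gave p = 0.0571 for Lin28a-induced and p = 0.1 for no-Cre against wild type, the smallest these group sizes allow, and adjusted p = 0.167 over 15 tests. Between the transgenic groups the exact permutation p was 0.8 for mRNAs, 0.971 for rRNAs and 0.457 for tRNAs.

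Levels between genes were compared per kilobase of gene, as mean CPM per kilobase. In the Lin28a-induced libraries mt-Cytb (956), mt-Nd1 (871 ± 196 SD) and mt-Co1 (850.3) led, followed by mt-Nd2 (454), mt-Nd5 (389), mt-Rnr2 (375), mt-Nd6 (374) and mt-Nd4 (212). mt-Rnr1 followed at 91.6 ± 15.8. The tRNA genes were lowest, at 40.5 ± 11.6 for mt-Tc and 6.44 ± 3.04 for mt-Tp. The first 3 lay within 1 SD of each other and their order is not resolved. In wild type mt-Nd1 stood first, at 4054 ± 787, above mt-Co1 (3516) and mt-Cytb (3503), again within their spread. Where mt-Co1 and mt-Nd4 were divided by the length of their unshared part only, they rose to 1485 and 581 in the Lin28a-induced libraries, and to 6138 and 2375 in wild type. On that scale mt-Co1 stood first in every group, so the order of these genes depends on how shared sequence is treated. Per kilobase, mt-Rnr2 lay among the complex I mRNAs and mt-Rnr1 below all 7 measured mRNAs in each group's mean. How RNA was selected is not given, so these values do not rank rRNAs against mRNAs in the tissue.

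The estimated fall against wild type differed in size between members. Shares of the counts of the 11 tested members were compared between the 7 transgenic libraries and the 3 wild-type ones, a pooling chosen after the data were seen. mt-Nd1 made up 14.6% ± 0.750 (SD, n = 7) of mitochondrial counts in the transgenic and 17.8% ± 0.302 (n = 3) in the wild-type libraries. mt-Nd2 was lower too, at 8.42% ± 0.257 against 9.24% ± 0.402. mt-Rnr2 was higher, at 10.5% ± 0.582 against 8.41% ± 0.794, and so was mt-Nd5, at 12.8% ± 0.633 against 10.9% ± 1.21. None of these 4 genes overlapped between the sets. Each had adjusted p = 0.0458 in an exact permutation test (raw p = 0.0167, the smallest possible with 7 against 3, over 11 genes). Since the pooling followed the data, these p-values describe the separation only. For mt-Rnr2 it was narrow, 9.39% in no-Cre replicate 7 against 9.30% in wild-type replicate 3. The remaining 7 members did not pass, among them mt-Co1 (23.7% ± 0.563 against 25.1% ± 0.626) and mt-Nd6 (3.56% ± 0.238 against 2.95% ± 0.444), each at adjusted p = 0.0611 in the exact permutation test. A share within a library shows unequal change only, since one gene's higher share lowers the others.

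**Figure D4:**
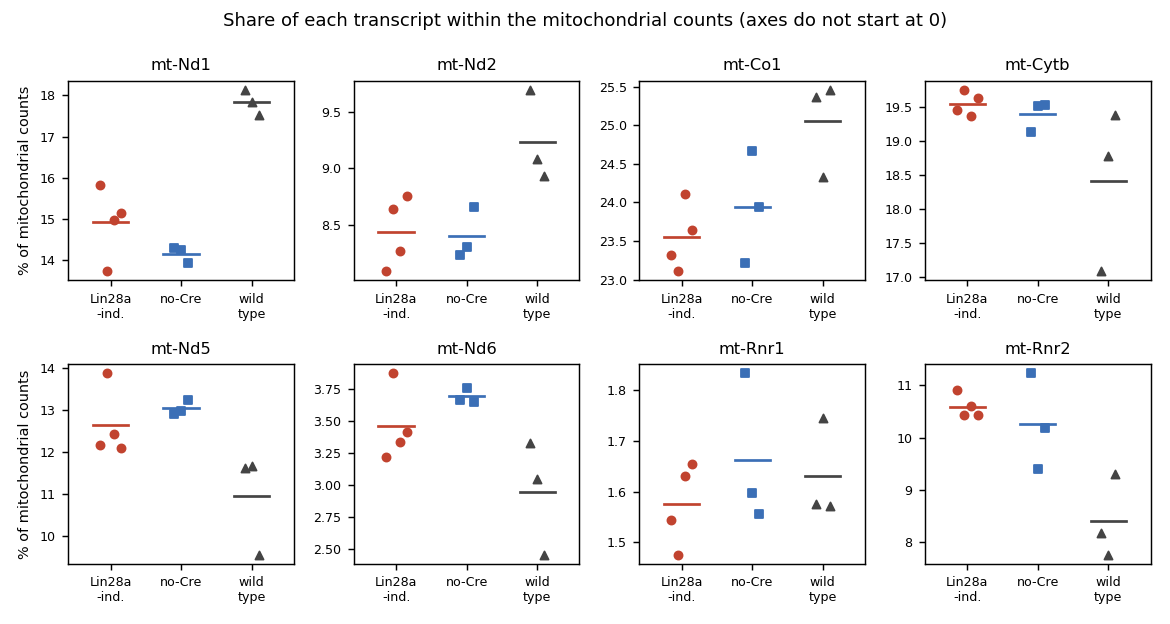
Share of 8 members, mRNAs and rRNAs, in the mitochondrial counts of each library (percent), with symbols for libraries, lines for group means and axes that do not start at 0. mt-Nd1 makes up 17.5% to 18.1% in wild type and 13.7% to 15.8% in the other libraries, and mt-Rnr2 7.76% to 9.30% against 9.39% to 11.2%.

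The rRNAs were 13.9 ± 0.309 counts per 100 mRNA counts in the Lin28a-induced, 13.6 ± 1.36 in the no-Cre and 11.2 ± 0.901 in the wild-type libraries (SD). The wild-type range (10.5 to 12.2) did not overlap the no-Cre range (12.4 to 15.0) or the Lin28a-induced range (13.5 to 14.2). The part of RNA selection in these ratios was not tested. mt-Nd6 was 4.11 ± 0.341 per 100 heavy-strand mRNA counts in the Lin28a-induced, 4.38 ± 0.0503 in the no-Cre and 3.39 ± 0.504 in the wild-type libraries. For mt-Nd6 the Lin28a-induced libraries reached into the wild-type range, and the no-Cre libraries did not. The adjusted exact permutation p was 0.167 for every one of these differences from wild type except that of mt-Nd6 in the Lin28a-induced libraries, at 0.171.

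Nuclear genes that act on these transcripts were read from lists of pathway genes. None of 18 tested genes of mitochondrial DNA replication and transcription passed between Lin28a-induced and no-Cre libraries. Against wild type 3 were higher and 7 lower in Lin28a-induced, and 3 higher and 5 lower in no-Cre libraries. These are 55.6% and 44.4% of the list, near the 49.3% and 42.5% of all tested genes that passed. Polg, the mitochondrial DNA polymerase, was higher at 102 ± 4.15 CPM in Lin28a-induced against 75.0 ± 9.52 in wild type (log2 fold change 0.45 ± 0.07, adjusted p = 0.000237). Tefm, the elongation factor of mitochondrial transcription, was lower at 16.5 ± 0.478 against 21.8 ± 1.98 CPM (-0.40 ± 0.08, adjusted p = 0.00101). Both differences were smaller in size than that of any mitochondrial transcript. The summed level of the list was 576 to 591 CPM in Lin28a-induced, 551 to 554 in no-Cre and 560.4 to 572 in wild-type libraries.

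Of 18 tested RNA processing, stability and decay genes, 0 passed between the transgenic groups. Against wild type 8 were higher and 2 lower in Lin28a-induced, and 2 higher and 2 lower in no-Cre libraries. Slirp, which with Lrpprc stabilizes mitochondrial mRNAs, was lower at 29.7 ± 0.646 CPM in Lin28a-induced and 32.4 ± 1.18 in no-Cre against 49.7 ± 6.18 in wild-type libraries. Its log2 fold changes were -0.74 ± 0.07 and -0.62 ± 0.08 (adjusted p = 3.69e-06 and 5.24e-05). Grsf1, a protein of mitochondrial RNA granules, was higher, at 181 ± 7.30 and 175 ± 4.71 against 132 ± 6.70 CPM (0.46 ± 0.05 and 0.40 ± 0.06, adjusted p = 1.53e-05 and 0.000100). The called share of the list was 55.6% and 22.2%, beside 49.3% and 42.5% of all tested genes.

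Mitochondrial ribosomal protein genes were taken by symbol, as those beginning with Mrpl or Mrps. Among 76 tested, 34 were lower and 3 higher in Lin28a-induced libraries against wild type (median -0.12). In no-Cre libraries 31 were lower and 2 higher (median -0.15). This choice also took in the pseudogene Mrpl48-ps, called lower in no-Cre libraries (log2 fold change -3.00 ± 0.38, adjusted p = 4.11e-05, edgeR). The called share, 48.7% and 43.4%, was near that of all genes, and the share called lower was 44.7% and 40.8%, beside 25.0% and 21.4% of all genes. Mrpl30 and Mrpl33, proteins of the large subunit, had the smallest p of the list, with log2 fold changes of -0.63 ± 0.05 and -0.65 ± 0.06 in the Lin28a-induced libraries (adjusted p = 8.98e-07 and 1.39e-06). Between the transgenic groups 1 of the 76 passed, Mrpl13, lower by -0.21 ± 0.04 (adjusted p = 0.0217). Of 13 tested rRNA and tRNA modification genes, 0 passed between the transgenic groups and 2 were lower against wild type in each comparison. Of 17 tRNA synthetases, 0 passed between the transgenic groups, 2 were higher and 2 lower in Lin28a-induced against wild type, and 2 were higher in no-Cre libraries. The called share of these lists, 11.8% to 23.5%, was below that of all tested genes in each comparison with wild type.

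Of 6 regulators of mitochondrial gene expression, 1 passed between the transgenic groups, beside 2.91% of all tested genes. This was Ppargc1a, a transcriptional coactivator of mitochondrial biogenesis. It was lower in Lin28a-induced than in no-Cre libraries, at 12.7 ± 1.22 against 17.7 ± 2.11 CPM (-0.48 ± 0.12, adjusted p = 0.0482). In wild type Ppargc1a stood at 12.4 ± 2.02 CPM, below the no-Cre libraries (no-Cre against wild type 0.52 ± 0.13, adjusted p = 0.00632). Its paralog Ppargc1b was at 1.81 ± 0.173 CPM in Lin28a-induced, 2.25 ± 0.528 in no-Cre and 5.54 ± 0.334 in wild-type libraries. It differed from wild type by -1.61 ± 0.18 and -1.30 ± 0.19 (adjusted p = 9.20e-06 and 0.000150). Pprc1, another coactivator of that family, was higher than in wild type, by 0.43 ± 0.05 and 0.27 ± 0.05 (adjusted p = 1.39e-05 and 0.00123). In all, 2 regulators were higher and 1 lower in Lin28a-induced, and 3 higher and 1 lower in no-Cre libraries against wild type.

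The labels give total RNA and a directional kit, and how RNA was selected is not given in the sources used here. Nuclear RNAs without a poly(A) tail had 43 of 129 genes tested. Of these, 8 were lower and 1 higher in Lin28a-induced, and 10 lower and 1 higher in no-Cre libraries against wild type (medians -0.41 and -0.70), with 0 passing between the transgenic groups. The share called lower, 18.6% and 23.3%, was near the 25.0% and 21.4% of all tested genes. The list's medians lay below the median of all tested genes, -0.02 in each comparison. Their summed level was 32.5 to 50.8 CPM in Lin28a-induced, 30.5 to 37.7 in no-Cre and 50.7 to 65.6 in wild-type libraries. The Lin28a-induced and wild-type ranges met at their ends, and the no-Cre range lay wholly below wild type. Rmrp, named by its small p, stood at 0.378 ± 0.140 and 0.344 ± 0.150 against 2.10 ± 0.765 CPM. Its log2 fold changes of -2.45 ± 0.38 and -2.57 ± 0.42 (adjusted p = 0.000151 and 0.000345) were of the size of those of the mitochondrial transcripts.

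Markers of some other tissues differed from wild type. In either direction, 49.3% of all tested genes passed in Lin28a-induced and 42.5% in no-Cre libraries against wild type. All 6 surface ectoderm markers were lower than in wild type in both groups, with summed levels of 219 to 259 CPM in Lin28a-induced, 237 to 265 in no-Cre and 708 to 892 in wild-type libraries. All 6 endothelial markers were higher (254 to 354, 268 to 304 and 62.1 to 125 CPM). Of 8 macrophage markers, 6 were higher in Lin28a-induced, and 4 higher and 1 lower in no-Cre libraries (97.1 to 120.3, 83.3 to 101 and 34.6 to 75.2 CPM). Of 8 red blood cell markers, 4 were higher in each, with overlapping sums of 3662 to 6013, 5513 to 9354 and 2591 to 7451 CPM. Muscle (5.64 to 9.98, 5.01 to 6.97 and 7.34 to 8.21 CPM) and neuron markers (6.46 to 8.07, 6.86 to 8.52 and 4.66 to 8.26 CPM) were low throughout, and 1 muscle marker was at 0 in wild type. Of 4 tested muscle markers Myf5 was lower in both groups (-1.50 ± 0.35 and -1.53 ± 0.38, adjusted p = 0.00276 and 0.00546), and Tnnt1 was higher in the Lin28a-induced libraries (0.58 ± 0.22, adjusted p = 0.0411). Of 5 tested neuron markers Stmn2 was higher in both (1.52 ± 0.45 and 2.27 ± 0.46, adjusted p = 0.0130 and 0.00147). The tail bud markers, with none at 0 in wild type, summed to 1204 to 1572, 1243 to 1313 and 642 to 1278 CPM, and 2 of 10 and 3 of 10 were higher than in wild type. The called shares of surface ectoderm, endothelial and macrophage markers were above those of all tested genes in both comparisons. The share of red blood cell markers was near the background, and those of tail bud and neuron markers were below it. The share of muscle markers was near it in Lin28a-induced and below it in no-Cre libraries. The part of cell makeup or RNA selection in the lower mitochondrial transcripts was not tested. No marker gene of these 7 lists passed between Lin28a-induced and no-Cre libraries, beside 2.91% of all tested genes.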

How the data were processed

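RNA sequencing of 10 tail bud libraries was analysed. The authors deposited 1 table of raw read counts per gene symbol, not normalized. Per the submitters' processing notes, STAR 2.3.1z4 placed the 75-base reads on mm10 and featureCounts made the counts; no step is given for DESeq2. How strand, overlaps and multiple alignments were handled, and with which annotation, is not stated there. Counts were filtered with filterByExpr, scaled with TMM and tested with edgeR 4.0.16 (quasi-likelihood, robust) with all 3 groups in 1 fit. Benjamini-Hochberg adjustment ran over 16340 tested genes, with a threshold of 0.05, and SE was derived from F (the size of the log2 fold change over the root of F). Adjusted p-values for genes come from edgeR. Class shares and shares within the mitochondrial counts were tested with exact permutation tests in scipy 1.17.1. Gene positions and sequences came from GENCODE M21. Other software was matplotlib 3.10.9, pandas 2.3.3, numpy 2.4.6, Python 3.11.15, DESeq2 1.42.0 and R 4.3.3. The edgeR script was tested on simulated data. All mt- mRNAs and rRNAs were named, tRNAs where they were tested or had counts, and of other lists up to 4 genes with the smallest p of a comparison. Gm10222, Gm13340, Gm28438 and Gm28661 were chosen after their values were seen. The members and lists were chosen with earlier results of these data known. Alternatives were DESeq2, its size factors in edgeR, no filter, at least 1 CPM in 3 libraries, fits of just the pair of groups, a sex covariate (2 libraries had a female pattern), library sizes without mitochondrial and globin genes, a replicate block and leaving out each library.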

Additional observations from a re-analysis of the deposited data

How the results depend on the processing

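The counts of members that passed (0 of 11 between the transgenic groups, 11 of 11 against wild type) were 0 and 11 in every edgeR alternative run, the last of 16 members where no filter was used. The class differences from wild type kept their direction under every alternative run, with each library left out too; no p was computed for those alternatives. Between the transgenic groups 3 class differences near 0 changed sign: leaving out 1 library gave a log2 difference of -0.166 to 0.0415 for the mRNA share, -0.143 to 0.0814 for the rRNA share and -0.0288 to 0.113 for rRNA to mRNA. DESeq2 tested 12 members against wild type, of which it called 11 and 12. The 198 alternative values of single members in the Lin28a-induced libraries against wild type all passed (log2 fold change -3.13 to -1.38, largest adjusted p = 0.0452, edgeR or DESeq2), as did the 187 in the no-Cre libraries (-2.36 to -1.41, largest 0.00912). Replicate numbers 2 and 3 occur in both the Lin28a-induced and wild-type groups. With them as a replicate block, 11 of 11 members passed in edgeR, from -2.97 for mt-Tp to -1.38 for mt-Nd6 (adjusted p = 0.0452). Deviations from group means correlated at -0.03 and -0.08 in same-numbered libraries, within the -0.09 to 0.13 of differently numbered ones. This gave no sign of pairing, but so few pairs cannot settle whether the numbers pair the samples. Between Lin28a-induced and no-Cre libraries, single members' differences near 0 changed sign without passing: mt-Rnr2 was -0.0275 with a sex covariate, and leaving out 1 library gave -0.12 to 0.11 for mt-Rnr2, -0.12 to 0.11 for mt-Nd1, -0.14 to 0.0423 for mt-Nd2, -0.33 to 0.00891 for mt-Tc, -0.18 to 0.0139 for mt-Co1, -0.22 to 0.00722 for mt-Nd4, -0.22 to 0.0245 for mt-Nd5 and -0.14 to 0.0559 for mt-Cytb. The log2 ratio of shares within the mitochondrial counts, transgenic to wild type, ran from -0.0484 to 0.0327 for mt-Rnr1 and from -0.14 to 0.0812 for mt-Tc. The cause was not tested. The tRNA genes other than mt-Tc and mt-Tp, and mt-Nd3, had too few counts for a test.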
